A study of Mus musculus with 4 samples.

Results

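The motile cilia genes described here are 42 genes for the parts of a beating cilium and for the factors that switch it on, matched by gene name in a table of 53397 genes. They comprise 3 transcription factors, 9 genes of the dynein arms and their docking complex, 4 dynein assembly factors, 5 genes of the axonemal rulers and the nexin-dynein regulatory complex, 4 radial spoke and central pair genes, 7 tektins and other proteins of the inner microtubule wall, 8 further genes linked to cilia or flagella, and 2 genes that act in reading the flow at the node. The rule names the members and sets no threshold on a measured value, but the list was drawn up with earlier results of these data known, so the shares of members that fell are a description. RNA was measured in the posterior epiblast of wild type (WT) mouse embryos, the tissue at the rear of the embryo from which the trunk and tail are built. One group was E7.5, embryonic day 7.5, and the other was E8.5, with 2 libraries in each group, and none of the embryos carried a mutation or had been treated. Dissected tissue was pooled separately for each library, and how many embryos went into a pool is not given in the sources used here. The question is how the expression of these genes differed between the stages.

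A motile cilium beats because dynein motors, carried as outer and inner arms on microtubule doublets, slide neighbouring doublets against each other, while radial spokes, a central pair and the nexin-dynein regulatory complex control the bending. Foxj1 is the master transcription factor of motile ciliogenesis, and the Rfx factors bind a sequence called the X-box in the promoters of many ciliary genes. In the mouse embryo the best known motile cilia at these stages are those of the node, a pit at the tip of the primitive streak, where each cell carries a single rotating cilium. They drive a leftward flow of fluid that is read at the rim of the node and sets the left-right axis.

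The values are reads per gene divided by a size factor of each library, called normalized counts below, and 1 read was worth between 0.0507 and 0.0562. The libraries held between 18488218 and 19493342 reads assigned to genes. CT010467 was the most abundant gene, at 25.6% of all normalized counts in E7.5 replicate 1 against 18.5% to 18.9% in each other library. Stages were compared with limma on log2(value + 1), where a log2 fold change below 0 means lower at E8.5 and understates the change of a gene with low values, and a gene was called at an adjusted p under 0.05 over the 13903 genes that reached a value of 1 in 2 libraries or more. Since many motile cilia genes had few reads, the ratio of normalized reads between the stages is given as well, with an exact 95% interval that covers counting error only. An exact permutation test of 2 libraries against 2 cannot go below p = 0.333, so none was used for single genes. In bulk tissue, fewer cells of a type and less RNA per cell cannot be told apart.

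Motile cilia genes were lower at E8.5 almost throughout. In 39 of the 42, both E8.5 values lay below both E7.5 values, in 1 (Rfx3) both lay above, and in 2 (Ccdc39 and Tmem212) the stages overlapped. Among all 20136 genes with at least 10 reads over the 4 libraries, 34.5% had both E8.5 values below both E7.5 values. The sum over the 42 genes was 270.0 and 251.1 at E7.5 against 143.7 and 150.9 at E8.5. Rfx3 and Mns1 held most of the E8.5 sum, and without Rfx3, Mns1 and Ccdc40, chosen after their levels were seen, the other 39 summed to 133.3 and 122.7 at E7.5 and to 27.34 and 26.42 at E8.5, a ratio of 4.76. Levels were low. A mean normalized count under 10 in both stages was found for 38 of the 42, and only Mns1, Rfx3, Foxj1 and Ccdc40 reached a mean of 10 at E7.5.

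**Figure D1:**
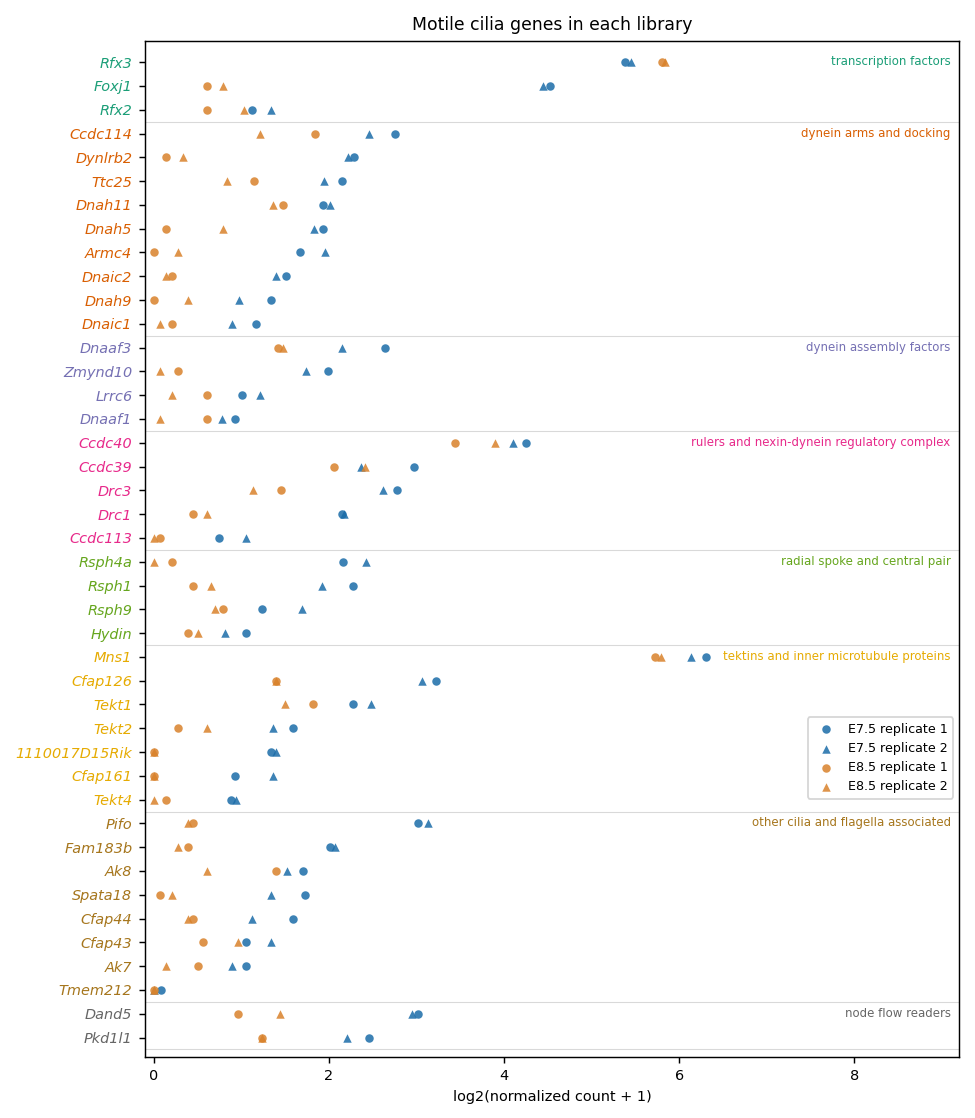
Normalized counts of the 42 motile cilia genes in each library, on the horizontal axis as log2(normalized count + 1), grouped by role on the vertical axis. Circles are replicate 1 and triangles replicate 2, with E7.5 in blue and E8.5 in orange. The orange points lie left of the blue ones in 39 genes and right of them in Rfx3, and they overlap in Ccdc39 and Tmem212.

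Of the 42 genes, 33 passed the limma filter on low values, and 29 of these fell, 1 rose (Rfx3) and 3 were not called (Rfx2, Ccdc39 and Cfap43). Over all genes tested, 26.4% were called lower and 25.6% higher. At least 2-fold falls on the log2(value + 1) scale were called for 20 of the 33, against 6.35% of all genes, while no motile cilia gene was called at least 2-fold higher, against 4.48%. The median log2 fold change was -1.09 over the 33 genes and -0.01 over all genes tested. The filter acts on the outcome, because 18 of the 33 passed it through the E7.5 values alone and so had to be higher there. Of these 18, 17 were called lower, 14 of them at least 2-fold. Of the other 15, 12 were called lower and 6 at least 2-fold, with a median log2 fold change of -0.72. Without E7.5 replicate 1 or 2, with the filter applied again, 11 and 12 members were called lower, since a gene present only at E7.5 then no longer has 2 values above the minimum. With the 13903 genes held fixed, 27 and 26 were called lower. The at least 2-fold falls numbered 3 and 7 with the filter applied again and 16 and 22 with the genes held fixed.

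The filter kept out Dnah9, Dnaic1, Dnaaf1, Ccdc113, Hydin, Tekt4, Cfap161, Tmem212 and Ak7. A count test in edgeR on the whole reads recovered from the values, over genes with at least 10 reads in all, reached 41 of the 42 members and left out Tmem212, which had 1 read in all libraries together. It called 34 lower, 1 higher (Rfx3) and 6 neither way (Rfx2, Dnaaf1, Ccdc39, Hydin, Cfap43 and Ak8). Over the 20136 genes in that test 19.5% were called lower and 18.8% higher. Both tests called 28 of the members lower, and 6 of the 9 genes kept out by the limma filter were called lower by edgeR.

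**Figure D2:**
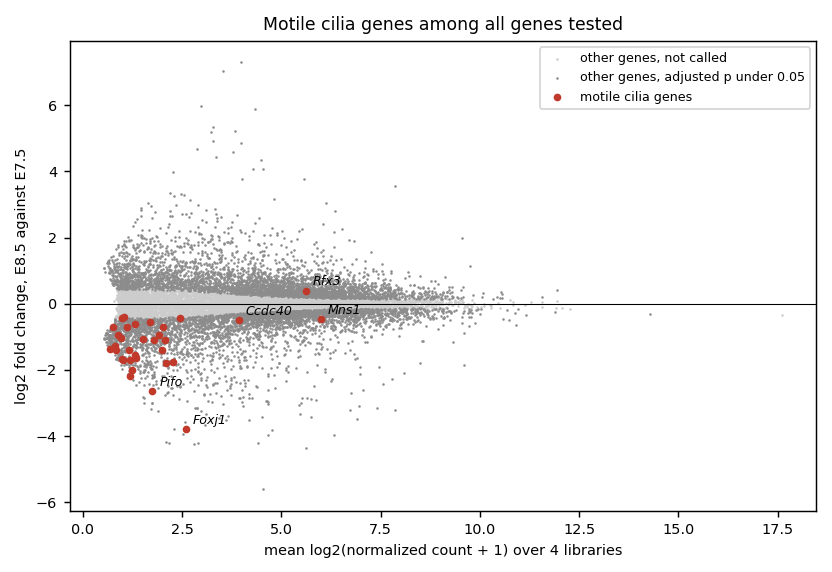
Log2 fold change (E8.5 minus E7.5, on log2(value + 1)) against the mean log2(normalized count + 1) over the 4 libraries for the 13903 genes tested, with the 33 tested motile cilia genes in red, other genes called by limma in dark grey and the rest in light grey. Apart from Rfx3 the red points lie below 0, and apart from Rfx3, Mns1 and Ccdc40 they lie at low mean levels.

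Foxj1, the forkhead factor at the head of the motile cilia programme, lies at chr11:116330704-116335399 on the minus strand (GRCm38). Its normalized count was 22.1 and 20.7 at E7.5 against 0.525 and 0.731 at E8.5, from 802 reads in the E7.5 libraries together and 24 in the E8.5 libraries. The stages lay far apart beside the spread within each. The ratio was 34, with an interval from 22.7 to 53.4, and the log2 fold change was -3.79 with an SE of 0.156 (limma adjusted p = 4e-11). It was the largest fall among the 33 tested members in the limma fit. Without either E7.5 library Foxj1 no longer passed the filter, and with the tested genes held fixed it stayed called.

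Rfx2 and Rfx3 are winged-helix factors that bind X-boxes. Rfx3 (chr19:27761721-28011166, minus strand) had 40.7 and 42.7 at E7.5 against 54.7 and 56.0 at E8.5. It rose by 1.32-fold in reads (log2 fold change 0.40, limma adjusted p = 0.00048), and the stages did not overlap. Rfx2 (chr17:56775897-56831013, minus strand) stood much lower, with 1.18 and 1.52 at E7.5 against 0.525 and 1.04 at E8.5. Both E8.5 values lay below both E7.5 values (ratio 1.73, interval 1.08 to 2.82), but the log2 fold change of -0.41 did not pass the test (limma adjusted p = 0.091), and without E8.5 replicate 2 it was -0.62 (adjusted p = 0.045). Among 8 other genes of the Rfx family and its complex, 6 were tested, 0 fell and 2 rose, counts that edgeR over genes with at least 10 reads gave as 0 and 3. Rfx4, known from the developing neural tube, had 1.01 and 2.84 at E7.5 against 7.29 and 7.26 at E8.5 (log2 fold change 1.57, limma adjusted p = 4.9e-05), and Rfx7 rose from 29.3 and 30.3 to 49.3 and 47.5 (log2 fold change 0.68, limma adjusted p = 6.5e-06).

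The X-box, the imperfect inverted repeat bound by Rfx factors, was looked for by its full consensus on both strands in the RefSeq promoter windows of GRCm38.p6, which reach from 250 bases before to 50 bases after each gene start. Between 0 and 3 bases were allowed between its arms. Of the 35 motile cilia genes with a window, 7 (20%) held a match, against 474 of 27025 genes (1.75%) and 1.53% of all 32851 windows. The 7 matches are printed with 20 bases on each side and the X-box in capitals, on the strand of the gene and 5′ to 3′, since of the sequences searched the X-box had the largest ratio of its share among members to its share among all genes.
Dnaic1, chr4:41569755-41569807 (+): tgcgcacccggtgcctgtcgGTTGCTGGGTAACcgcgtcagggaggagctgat
Dnaic2, chr11:114727366-114727418 (+): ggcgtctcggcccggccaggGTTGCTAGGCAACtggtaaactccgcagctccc
Dynlrb2, chr8:116504944-116504996 (+): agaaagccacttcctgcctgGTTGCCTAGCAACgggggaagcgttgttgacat
Hydin, chr8:110266936-110266989 (+): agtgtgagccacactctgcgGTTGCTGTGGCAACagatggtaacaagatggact
Tekt2, chr4:126325685-126325737 (-): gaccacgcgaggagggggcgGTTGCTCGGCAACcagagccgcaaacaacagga
1110017D15Rik, chr4:41507750-41507802 (-): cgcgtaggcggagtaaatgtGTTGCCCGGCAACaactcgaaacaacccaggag
Cfap44, chr16:44394752-44394805 (+): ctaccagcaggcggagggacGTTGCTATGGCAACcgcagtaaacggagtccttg

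In all 7, the first base of the X-box lay between 18 and 51 bases before a gene start (for Tekt2, 29 bases in one window and 71 in the window of a second start). Of the other 467 genes with an X-box, 201 (43.0%) had it 1 to 60 bases before the start. The shorter sequence GTTGCC, a single arm of the repeat, overlaps some of the full matches. It was found for 17 of the 35 members with a window (48.6%), against 14.1% of genes and 12.5% of windows, and Rfx2 and Rfx3 were among the 17. The forkhead sequence TGTTTAC was in 2 of the 35 (5.71%, Ak7 and Cfap43), against 4.05% of genes and 3.65% of windows. An X-box alone did not go with a fall across the genome. Of 191 other genes with one that were tested, 42 (22%) were called lower and 39 (20.4%) higher, 6 (3.14%) were called at least 2-fold lower, and their median log2 fold change was 0.03. The 7 members with an X-box all had both E8.5 values below both E7.5 values. Their read ratios ran from 2.47 in Hydin to 20.5 in Dynlrb2, and 1110017D15Rik had no read at E8.5. A match describes letters in a window and is not a measurement of binding.

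**Figure D3:**
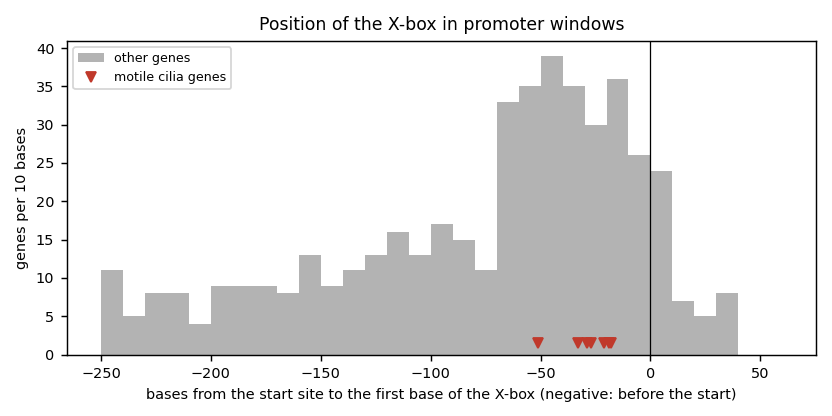
Distance of the X-box from the gene start, in bases, on the horizontal axis, and number of genes on the vertical axis. Grey bars count the other genes with an X-box and marks show the 7 motile cilia genes, which lie between 18 and 51 bases before the start.

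All 9 genes of the dynein arms and docking complex had both E8.5 values below both E7.5 values, against 34.5% of all genes with at least 10 reads. All 9 were called lower by edgeR, against 19.5% of the genes in that test. All 7 that passed the limma filter were called lower there, against 26.4% of all genes tested. Of these, Dnah5, Dnaic2, Dynlrb2 and Armc4 passed the filter through the E7.5 values alone, so the filter set their direction. Dnah5, the heavy chain motor of the outer arm, had 2.81 and 2.54 at E7.5 against 0.105 and 0.731 at E8.5 (ratio 6.37, interval 3.73 to 11.6, log2 fold change -1.41, limma adjusted p = 5.4e-05). Dnah9, its partner in the outer part of many cilia, had 1.52 and 0.964 against 0 and 0.313 (ratio 7.81, interval 3.33 to 22.4, edgeR adjusted p = 0.0038). Dnah11, the outer arm motor whose loss randomises left-right asymmetry in the mouse, was lower by less. Its values were 2.81 and 3.04 at E7.5 against 1.78 and 1.57 at E8.5 (ratio 1.75, interval 1.28 to 2.42, log2 fold change -0.55, limma adjusted p = 0.013). Its call was lost without E7.5 replicate 2 (adjusted p = 0.064) or E8.5 replicate 2 (adjusted p = 0.074).

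Among the members, the intermediate and light chains of the arms had larger read ratios than the motors. Chains in the list of other axonemal genes described below were mixed. Dnal1, Dnal4 and Wdr78 had ratios of 1.30, 1.14 and 1.09, Wdr63 had 12.7, and Dnali1 had 22 reads at E7.5 against 0 at E8.5. The intermediate chain Dnaic2 had 1.85 and 1.62 at E7.5 against 0.157 and 0.104 at E8.5 (ratio 13.2, interval 5.39 to 42.1), and Dnaic1 1.24 and 0.862 against 0.157 and 0.0522 (ratio 9.93, interval 3.58 to 38.3, edgeR adjusted p = 0.0011). The roadblock light chain Dynlrb2 went from 3.88 and 3.65 to 0.105 and 0.261 (ratio 20.5, interval 9.70 to 52.0, log2 fold change -2.01, limma adjusted p = 2.2e-07). These 3 are among the genes with an X-box printed above. Their intervals overlap those of Dnah5 and Dnah9, and no difference between members was tested. In the docking complex, which fixes the outer arm to the doublet, Armc4 had 2.19 and 2.89 at E7.5 against 0 and 0.209 at E8.5 (ratio 24.4, interval 9.24 to 91.6, log2 fold change -1.68, limma adjusted p = 3.2e-06). Ccdc114 (5.73 and 4.51 against 2.57 and 1.31) and Ttc25 (3.43 and 2.84 against 1.21 and 0.783) kept more of their level, with ratios of 2.63 and 3.14.

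The assembly factors build dynein arms in the cytoplasm before they enter the cilium. Zmynd10 had 2.98 and 2.33 at E7.5 against 0.21 and 0.0522 at E8.5, a ratio of 20.2 with an interval from 8.36 to 63.5 (log2 fold change -1.69, limma adjusted p = 2.3e-06). Dnaaf3 fell from 5.23 and 3.45 to 1.68 and 1.78 (ratio 2.48, log2 fold change -0.95, limma adjusted p = 0.0006). Lrrc6, a binding partner of Zmynd10, had 1.01 and 1.32 at E7.5 against 0.525 and 0.157 at E8.5 (ratio 3.45, log2 fold change -0.70, limma adjusted p = 0.0072), and its call was lost without E8.5 replicate 2 (adjusted p = 0.11) and, with the tested genes held fixed, without E7.5 replicate 2 (adjusted p = 0.052). The 4 genes all had separate stages, but Dnaaf1, with 30 reads at E7.5 against 11 at E8.5, did not pass edgeR's test (adjusted p = 0.10, ratio 2.78, interval 1.35 to 6.14). In a list of 12 other dynein assembly genes, 9 were tested, 4 fell and 0 rose (median log2 fold change -0.27), and edgeR over genes with at least 10 reads gave 5 and 0. Without E8.5 replicate 1 only 2 fell. The furthest fall there was in Ccdc103 (-0.86, limma adjusted p = 0.0012).

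Ccdc39 and Ccdc40 form the molecular ruler along the doublet that spaces the inner arms and spokes, and both kept most of their level. Ccdc40 had 18 and 16.2 at E7.5 against 9.87 and 13.9 at E8.5 (ratio 1.43, interval 1.27 to 1.62, log2 fold change -0.51, limma adjusted p = 0.0089). The call was lost without E8.5 replicate 1 (log2 fold change -0.28, adjusted p = 0.15) and, with the tested genes held fixed, without E7.5 replicate 1 (adjusted p = 0.10). Ccdc39 had 6.86 and 4.16 at E7.5 against 3.15 and 4.33 at E8.5, so that the stages overlapped, and it was not called (log2 fold change -0.44, limma adjusted p = 0.083), though it was without E7.5 replicate 2 (-0.74, adjusted p = 0.0014) or E8.5 replicate 2 (-0.62, adjusted p = 0.022). The members of the nexin-dynein regulatory complex, which links neighbouring doublets, had larger ratios, with counting intervals that do not overlap those of the rulers. Counting intervals leave out the spread between libraries, and this difference was not tested. Genes of the complex outside the members were mixed. Gas8 had a ratio of 1.02 (interval 0.935 to 1.11) and Tcte1 2.04 (0.708 to 6.62), while Iqcg had 2.70, Ccdc65 8.86 and Iqca 18.3. Drc1 had 3.43 and 3.50 at E7.5 against 0.367 and 0.522 at E8.5 (ratio 7.79, interval 4.68 to 13.8, log2 fold change -1.63), and Drc3 5.85 and 5.12 against 1.73 and 1.20 (ratio 3.73, interval 2.76 to 5.11, log2 fold change -1.40). Ccdc113, a coiled-coil protein of the axoneme, had 33 reads at E7.5 against 1 at E8.5, a ratio of 33.6 with an interval from 5.63 to 1370 (edgeR adjusted p = 0.00063).

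Radial spoke head genes showed the largest read ratio among the members with reads in both stages. Rsph4a (chr10:33905111-33916021, plus strand) had 3.48 and 4.36 at E7.5 against 0.157 and 0 at E8.5, which is 148 reads against 3 and a ratio of 50.3 with an interval from 16.9 to 246 (log2 fold change -2.19, limma adjusted p = 1.3e-07). Rsph1, another protein of the spoke head, fell from 3.82 and 2.79 to 0.367 and 0.574 (ratio 6.96, interval 4.23 to 12.1, log2 fold change -1.54). Rsph9 fell less, from 1.35 and 2.23 to 0.735 and 0.627 (ratio 2.66, interval 1.67 to 4.36, log2 fold change -0.71, limma adjusted p = 0.0062), and with the tested genes held fixed its call was lost without E7.5 replicate 2 (adjusted p = 0.068). The counting intervals of Rsph4a and Rsph9 do not overlap, but the difference between them was not tested. Hydin, a very large protein of the central pair, had 1.07 and 0.761 at E7.5 against 0.315 and 0.418 at E8.5, or 34 reads against 14, and was not called by edgeR (adjusted p = 0.059, ratio 2.47, interval 1.29 to 4.99).

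Tektins are filaments inside the doublet wall. Tekt2 had 2.02 and 1.57 at E7.5 against 0.21 and 0.522 at E8.5 (ratio 4.88, log2 fold change -1.04, limma adjusted p = 0.00032), Tekt1 3.82 and 4.56 against 2.52 and 1.83 (ratio 1.94, log2 fold change -0.72, limma adjusted p = 0.0033), and Tekt4 33 reads against 2 (ratio 16.8, interval 4.30 to 145, edgeR adjusted p = 0.0013). All 3 fell, and none of them overlapped between the stages. Cfap126, also called Flattop, fell from 8.32 and 7.35 to 1.63 and 1.62 (ratio 4.81, log2 fold change -1.75, limma adjusted p = 3.8e-07). No read of Cfap161, a protein of the microtubule interior, or of 1110017D15Rik was found at E8.5. Cfap161 had 0.899 and 1.57 at E7.5 and was called lower by edgeR (adjusted p = 6.9e-05). With 3 reads assumed over both E8.5 libraries its ratio was 16.0, and the lower limit of its counting interval was 12.5. The gene 1110017D15Rik had 1.52 and 1.62 at E7.5 (limma adjusted p = 1.4e-05). By the same measures its ratio was 20 and the lower limit 15.8. At this depth neither can be called absent.

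Mns1, a structural protein of cilia and flagella, had the highest level per kilobase of exon among the members in both stages. Its normalized count was 77.9 and 69.4 at E7.5 against 51.8 and 54.6 at E8.5. The stages did not overlap, but the fall was small, with a ratio of 1.38 (interval 1.30 to 1.46) and a log2 fold change of -0.46 (limma adjusted p = 0.00016). Its counting interval lies below those of Foxj1, Dynlrb2 and most other members, but no difference between members was tested.

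Among the further genes linked to cilia, Pifo (pitchfork, a protein of nascent and disassembling cilia) fell most. It had 7.08 and 7.76 at E7.5 against 0.367 and 0.313 at E8.5, a ratio of 21.9 with an interval from 12.6 to 41.6 (log2 fold change -2.65, limma adjusted p = 5.6e-09). Spata18, known for its part in mitochondrial quality control, went from 2.30 and 1.52 to 0.0525 and 0.157 (ratio 18.1, interval 6.76 to 68.2, log2 fold change -1.39). Fam183b fell from 3.04 and 3.2 to 0.315 and 0.209 (ratio 11.9, interval 6.26 to 25.5, log2 fold change -1.71). These 3 had under 1 normalized count in each E8.5 library. Cfap44 and Cfap43, which act together in sperm tails, differed in their calls: Cfap44 fell from 2.02 and 1.17 to 0.367 and 0.313 (ratio 4.62, interval 2.51 to 9.19, log2 fold change -0.93), and Cfap43 had 1.07 and 1.52 against 0.472 and 0.94 (ratio 1.85, interval 1.13 to 3.08, log2 fold change -0.43, limma adjusted p = 0.077, and 0.043 without E8.5 replicate 2). Their intervals overlap, and the difference between them was not tested.

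The adenylate kinases Ak7 and Ak8, enzymes that balance the nucleotides which fuel the beat, were lower with wide errors. Ak7 had 36 reads at E7.5 against 10 at E8.5 (ratio 3.67, interval 1.78 to 8.29, edgeR adjusted p = 0.021). Ak8 had 2.25 and 1.88 at E7.5 against 1.63 and 0.522 at E8.5 (log2 fold change -0.61, limma adjusted p = 0.034). The Ak8 call rested on single libraries: its log2 fold change was -0.52 (adjusted p = 0.079) without E7.5 replicate 1, -0.22 (adjusted p = 0.48) without E8.5 replicate 2 and -1.01 (adjusted p = 0.00083) without E8.5 replicate 1, and edgeR did not call it (adjusted p = 0.085). With the tested genes held fixed, it was also lost without E7.5 replicate 2 (adjusted p = 0.085). Tmem212 had its single read in E7.5 replicate 1, so no difference was detectable at this depth.

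Dand5 and Pkd1l1 act where the flow is read, and both fell. Dand5 (chr8:84815405-84822823, minus strand) is the secreted Nodal antagonist at the rim of the node whose mRNA decays on the left in response to flow. It had 7.08 and 6.69 at E7.5 against 0.945 and 1.72 at E8.5 (ratio 5.15, interval 3.80 to 7.10, log2 fold change -1.78, limma adjusted p = 1.4e-06). Pkd1l1 (chr11:8826708-8973266, minus strand), a polycystin of the sensory cilia there, had 4.50 and 3.60 at E7.5 against 1.36 in each library at E8.5 (ratio 2.96, interval 2.15 to 4.14, log2 fold change -1.09, limma adjusted p = 8.9e-05). Its channel partner Pkd2 had 14.7 and 15.3 against 16.5 and 18.9 and was not called (log2 fold change 0.22, limma adjusted p = 0.12). Nodal itself, the signal that Dand5 holds back, fell from 4.55 and 5.33 to 0.682 and 0.888 (ratio 6.32, interval 4.28 to 9.62, log2 fold change -1.73). Its partner Gdf1 was listed at 0 in all 4 libraries.

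In a list of 22 left-right pathway genes that holds Nodal and Pkd2, 19 were tested, 9 fell and 3 rose, with a median log2 fold change of -0.17. With the filter applied again, 6 fell without E7.5 replicate 1 and 5 without E7.5 replicate 2. Lefty2, a Nodal antagonist, fell by 4.20 on the log2 scale, and Dicer1, an enzyme of microRNA processing, rose (0.53).

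The role groups can be set side by side by their summed level and their calls. The ratio of the summed E7.5 to the summed E8.5 value was 6.22 for the radial spoke and central pair genes, 5.95 for the further genes, 4.24 for the dynein arms and docking, 4.06 for the readers of flow, 3.60 for the assembly factors, 1.84 for the rulers and regulatory complex, 1.59 for the tektin group with Mns1, and 1.14 for the transcription factors with Rfx3. Over all genes tested in limma, 26.4% fell. Of the 33 tested members, 18 passed the filter through the E7.5 values alone, so the filter set their direction. In limma, the tested genes that fell were 7 of 7 for the arms and docking, 3 of 3 for assembly, 3 of 4 for the rulers and regulatory complex, 3 of 3 for the spokes, 5 of 5 for the tektin group, 5 of 6 for the further genes, 2 of 2 for the readers and 1 of 3 for the transcription factors. In the same order, the numbers that fell were 3, 1, 2, 0, 3, 0, 2 and 0 without E7.5 replicate 1 and 2, 1, 3, 0, 3, 1, 2 and 0 without E7.5 replicate 2, with the filter applied again. Without E8.5 replicate 1 the rulers and regulatory complex gave 2, and without E8.5 replicate 2 the assembly factors gave 2 and the transcription factors gave 2.

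Among all 42, the ratio was at least 10 in 13 genes, at least 4 in 22 and at least 2 in 32, and 8 had a ratio between 1 and 2. The median was 4.62 over the 39 with reads in both stages, and the counting interval lay above 1 in 40. Ratios were lowest in Rfx3 (0.755), Mns1 (1.38), Ccdc40 (1.43) and Ccdc39 (1.45).

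**Figure D4:**
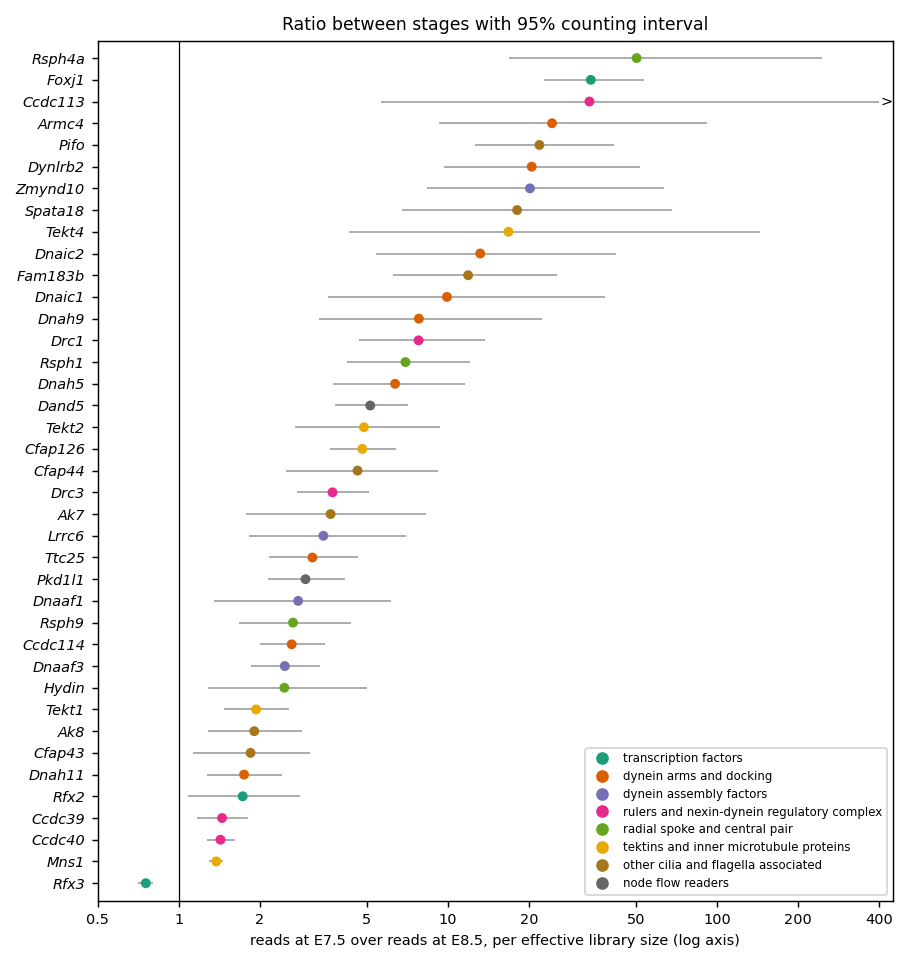
Ratio of normalized reads, E7.5 over E8.5, on a log axis for the members with reads in both stages, with exact 95% counting intervals as bars and a line at 1, coloured by role. Rsph4a (50.3), Foxj1 (34) and Ccdc113 (33.6) lie at the top and Rfx3 (0.755) at the bottom, members without a read at E8.5 have no point, and the bar of Ccdc113 runs past the axis.

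Per kilobase of exon, the levels at E7.5 were highest in Mns1 (13.7 normalized counts per kilobase), Foxj1 (8.17), Dynlrb2 (6.77), Pifo (6.58) and Fam183b (5.49), followed by Cfap126 (4.42), Dand5 (4.35) and Rfx3 (3.78). The median over the 42 was 0.875 per kilobase at E7.5 and 0.163 at E8.5. The order in the later stage was Mns1 (9.92), Rfx3 (5.02), Ccdc40 (1.97) and Tekt1 (1.34), so that 4 of the 5 genes highest at E7.5 were no longer among the leading ones. Apart from Tmem212 (0.0392), the lowest at E7.5 were Hydin at 0.0507 and Dnah9 at 0.0778 per kilobase, with exon lengths of 18037 and 15949 bases.

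Exons of 12 members overlap exons of another gene, and the libraries were not stranded. For 4 of them the other gene lies on the opposite strand and had a mean value over 10: Mns1 shares 2842 bases with Tex9 (mean 18.3), Ccdc39 1256 bases with Ttc14 (65.9), Dnah11 642 bases with Cdca7l (75) and Dnaaf1 584 bases with Taf1c (10.3). Reads from either strand cannot be told apart there. Mns1, Ccdc39 and Dnah11 are among the members with the smallest ratios, and the part of the overlapping genes in their values was not tested.

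Beyond the 42, a list of 79 other genes of the motile axoneme moved mostly in the same direction. Of these, 48 were tested, 31 fell, 1 rose and 16 were not called, with a median log2 fold change of -0.77. Over all genes tested, 26.4% fell, and genes that passed the filter through the E7.5 values alone had to be higher there. In edgeR over genes with at least 10 reads, 40 of 68 were called lower and 1 higher. The list summed to 354.4 and 361.4 at E7.5 against 265.3 and 263.6 at E8.5, a ratio of 1.35. Cfap20, Nme7, Gas8 and Dnal4, which had the highest levels in the list, were not called, while Mlf1, next in level, fell (ratio 2.11). With the filter applied again, 8 were called lower without E7.5 replicate 1 and 8 without E7.5 replicate 2, and with the tested genes held fixed 27 and 30. Tppp3, a tubulin polymerization promoting protein, had 7.70 and 6.29 at E7.5 against 0.525 and 0.365 at E8.5 (log2 fold change -2.46, limma adjusted p = 2.1e-08). Nme5, a radial spoke protein, had 6.91 and 8.17 against 1.47 and 0.418 (log2 fold change -2.19). The single rise, of Efhc2 (0.38, limma adjusted p = 0.043), was lost on leaving out E7.5 replicate 1 (adjusted p = 0.18), E8.5 replicate 1 (0.17) or E8.5 replicate 2 (0.071), and with the tested genes held fixed also without E7.5 replicate 2 (0.066).

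The transport genes that every cilium needs did not show that shift. In a list of 44 intraflagellar transport and BBSome genes, 43 were tested, 5 fell, 6 rose and 32 were not called, with a median log2 fold change of -0.08. The list summed to 1035 and 1058 at E7.5 against 1059 and 1025 at E8.5. Ift88 had 26.5 and 30.1 against 25.8 and 23.9 (log2 fold change -0.18, limma adjusted p = 0.14), a call gained when E7.5 replicate 1 was left out (-0.27, adjusted p = 0.040). Kif3a, a motor of that transport, had 28.0 and 28.2 against 29.3 and 26.8 (ratio 1.0, interval 0.92 to 1.09). The furthest fall was in Ttc30b (-1.05, limma adjusted p = 6.4e-05). Dync2h1 (0.41, limma adjusted p = 0.0008), the motor of the return transport, rose. Without E8.5 replicate 1 there were 2 falls and 3 rises, and without E7.5 replicate 1, with the tested genes held fixed, 3 falls and 3 rises. DESeq2 called 2 falls and 4 rises.

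**Figure D5:**
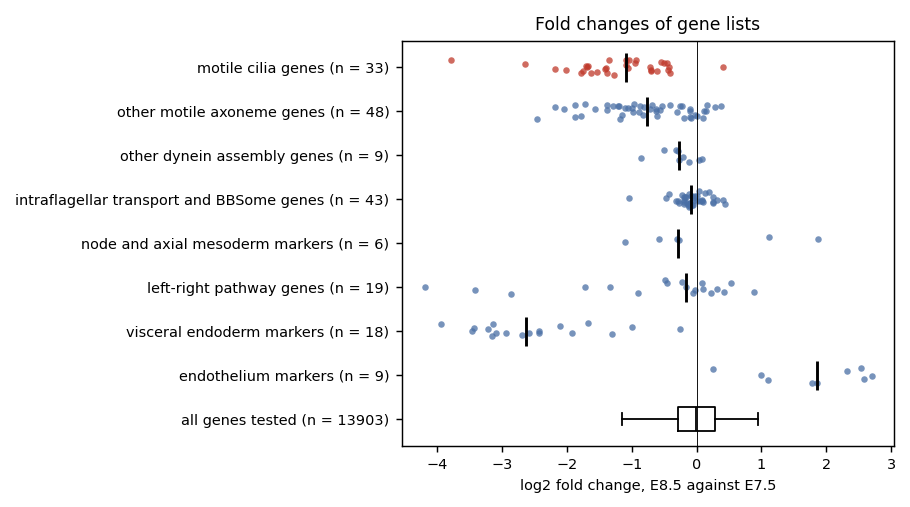
Log2 fold change (E8.5 minus E7.5, on log2(value + 1)) of each tested gene in the motile cilia genes and in the other lists, with the median of each list as a black bar. For all genes tested, the box spans the lower to the upper quartile and the whiskers the 5th to the 95th percentile. The motile cilia genes have a median of -1.09, other axonemal genes -0.77, intraflagellar transport and BBSome genes -0.08 and visceral endoderm markers -2.64.

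Genes that mark the node itself moved in both directions. Of 6 node and axial mesoderm markers, 2 fell, 2 rose and 2 were not called, with a median log2 fold change of -0.29, and none was at 0. In 4 of them both E8.5 values lay below both E7.5 values, and in 2 (Shh and Nog) both lay above. They summed to 58.73 and 59.19 at E7.5 against 66.96 and 67.35 at E8.5, and without Shh to 52 and 54.5 against 45.1 and 42.7. Noto, the homeobox factor of the node, had 12.1 and 11.2 at E7.5 against 8.34 and 10.3 at E8.5 (ratio 1.25, interval 1.08 to 1.44, log2 fold change -0.30, limma adjusted p = 0.080), and it was called lower without E8.5 replicate 2 (-0.44, adjusted p = 0.035). Sox9 had 13.8 and 12.8 against 10.7 and 11.0 (-0.27, limma adjusted p = 0.080). Foxa2 fell from 15.4 and 16.8 to 11.0 and 9.97 (log2 fold change -0.58) and Chrd from 7.64 and 8.47 to 4.25 and 2.40 (-1.10). Shh rose from 6.74 and 4.67 to 21.9 and 24.7 (1.87) and Nog from 3.04 and 5.22 to 10.8 and 8.98 (1.12). These genes also mark notochord and floor plate, and no single one of them counts node cells.

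Markers of other cell types moved between the stages as well. All 18 visceral endoderm markers fell (median log2 fold change -2.64), their sum going from 4349 and 4210 at E7.5 to 786.7 in each library at E8.5, a ratio of 5.44. The furthest falls among them were in Spink1 (-3.95) and Cubn (-3.47). Of 7 epiblast markers, 6 fell and 0 rose (median -2.86), and their sum went from between 682.3 and 726.8 to between 103.2 and 113.3. The epiblast marker Pou5f1 (-5.61) was still read at E8.5. In the other direction, 8 of 9 endothelium markers and 9 of 10 tested blood markers rose. The part of these cell types in the motile cilia result was not tested. In a list of 12 germ cell and testis genes, 3 were tested: Ddx4 fell (-1.67), Dppa3 was not called (-0.18, limma adjusted p = 0.43), and Prdm1 rose (0.36, limma adjusted p = 0.019). The rise of Prdm1 was lost without E7.5 replicate 2 (adjusted p = 0.079), E8.5 replicate 1 (0.085) or E8.5 replicate 2 (0.053). The sperm genes Tnp1 and Akap4 were listed at 0 in every library while Prm1, Prm2 and Odf1 had between 2 and 3 reads in all.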

How the data were processed

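Total RNA of pooled posterior epiblast was taken from 4 libraries, 2 per stage, as GEO's labels group them. The authors prepared SMART-Seq2 libraries, sequenced single-end reads of 75 bases and aligned them to mm10 with STAR. The deposited values are a signal: the authors scaled the reads of every gene by one size factor per library. The paper names DESeq2 and the labels name edgeR for the normalization, and the counting program and annotation are not given in the sources used here. Whole reads were recovered for 100% of the values within 0.0001 reads. The deposited table had 0 columns of other samples.

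Stages were compared with limma 3.58.1 (R 4.3.3, trend) on log2(value + 1), with a minimum value of 1 in 2 libraries and Benjamini-Hochberg adjustment over 13903 genes. Recovered reads were tested with edgeR 4.0.16 (quasi-likelihood) and DESeq2 1.42.0 as alternatives, and the edgeR fit over genes with at least 10 reads was added after the data were seen, as were 1 other scaling and the fits that leave out a library with the same genes kept. The limma, edgeR and DESeq2 tests were tried on simulated data of 4 libraries, with changes placed only in genes with more reads than many members had. The promoter search, the edgeR fit over genes with at least 10 reads and the fits that leave out a library were not tried in this way. Read ratios have exact binomial intervals at 95%, and for a stage where no read was found, 3 reads over both libraries were assumed (a value of 0.0785 at E8.5). Identifiers, exons and overlaps came from GENCODE vM21, in which all 53397 identifiers were found, and promoter sequences from NCBI RefSeq on GRCm38.p6. All 42 members are named, and from each other list those with the largest changes, at most 2 in each direction, beside defining genes of the node, of multiciliated cells and of cilia. The members and lists were chosen with earlier results of these data known. Replicate numbers did not pair the samples (correlation of same-numbered deviations -0.002 over 13903 genes). Replicates are separate pools, so p-values refer to the spread between pools. In limma most of that spread is borrowed from the trend over all genes tested. A gene's own values give 2 degrees of freedom and the trend 12.8. Some genes, among them some that this rule picks, are not reported here.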

Additional observations from a re-analysis of the deposited data

How the results depend on the processing

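With a replicate block 29 members were called lower, as without it, and it changed no member's call. The replicate numbers share only a number, since same-numbered deviations did not correlate (r = -0.002). Members called lower numbered 25 with DESeq2, 28 with edgeR, 34 with edgeR over genes with at least 10 reads (30 of them at least 2-fold), 26 with no filter, 27 with no trend and 7 with a minimum value of 5, where few members are tested. Leaving out 1 library gave 11 to 29 members called lower, and 3 to 22 (against 20) at least 2-fold lower. At least 2-fold lower were 5 members with a minimum value of 5, 4 with a pseudocount of 4 and 25 with one of 0.1. A minimum value of 5 left 0 dynein arm and docking genes, 0 assembly factors, 0 spoke and central pair genes, 2 of the tektin group, 1 further gene, 1 reader of flow and 6 other axonemal genes called lower. No filter left 1 assembly factor, 2 other assembly genes and 2 transport genes, DESeq2 2 and no trend 3 transport genes. Leave-one-out ranges were 0 to 2 for the transcription factors, 2 to 7 for arms and docking, 1 to 3 for assembly, 2 to 4 for rulers and regulatory complex, 0 to 3 for spokes, 3 to 5 for the tektin group, 0 to 5 for further genes, 2 to 2 for readers, 8 to 30 for other axonemal genes, 2 to 5 for other assembly genes, 2 to 5 for transport genes and 5 to 9 for left-right genes. Over all genes, at least 2-fold lower were 1754 (edgeR over at least 10 reads), 519 (minimum value 5), 365 (pseudocount 4) and 554 to 917 (leave-one-out, up to 925 with the same genes kept) against 883, and at least 2-fold higher 1020 (edgeR), 1359 (edgeR over at least 10 reads), 961 (pseudocount 0.1), 283 (pseudocount 4) and 463 to 680 (leave-one-out) against 623. The low counts without an E7.5 library follow from the filter. For the other changes the cause was not tested. With 1 library left out, the lone library of a stage is assumed to vary like the other stage. No direction reversed in these results. At E8.5, 13 members had fewer than 5 reads per library on average, which limits their ratios.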

Other observations

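Genes that drive multiciliation, the making of many cilia per cell, did not move one way. Of a list of 12, 7 were tested, 3 fell and 3 rose, with a median log2 fold change of 0.05, and edgeR over genes with at least 10 reads gave the same counts over 10 genes. Trp73, a p53 family factor of multiciliated cells, had 3.2 and 2.69 at E7.5 and no read at E8.5 (limma adjusted p = 3e-07). With 3 reads assumed over both E8.5 libraries its ratio was 37.4, and the lower limit of its counting interval was 29.9. Foxn4 had 43 reads at E7.5 against 2 at E8.5, a ratio of 21.9 with an interval from 5.71 to 187 (limma adjusted p = 0.0002), and Ccno fell from 2.75 and 3.55 to 1.63 and 1.46 (log2 fold change -0.70, limma adjusted p = 0.0037). Ccno is a defining gene of the multiciliated state. Of the others, Mcidas with 8 reads against 4 and Gmnc with 5 against 0 were close to the limit of detection. Deup1 had 26 reads against 34 (edgeR adjusted p = 0.58). E2f5 and Plk4, which also serve dividing cells, rose by 0.60 each on the log2 scale (limma adjusted p = 3.7e-06 and 3.5e-06). Cep152 rose by 0.29 (limma adjusted p = 0.035), and its call was lost whichever library was left out.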
